A study of Drosophila melanogaster with 6 samples.

Results

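Of the 2396 Drgx intervals in the deposited list, 438 lay in intergenic sequence beside protein-coding genes, and these are described here. An interval was included when its midpoint fell in no annotated gene of any biotype on arms 2L, 2R, 3L, 3R, 4 or X, and lay more than 500 bp and at most 5 kb from the nearest end of a protein-coding gene. Genes were those of the Release 6 RefSeq table. Together the 438 intervals made up 18.3% of the 2394 intervals on these arms and 54.6% of the 802 intergenic ones outside gene ends.

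The intervals come from Targeted DamID in T4/T5 neurons of Drosophila melanogaster larvae of the third instar. All 6 samples carried UAS-CD8-GFP, tubGal80ts and the driver R23G12-Gal4. The 3 Dam-Drgx samples added UAS-Dam-DRGX, and the 3 Dam-only samples added UAS-Dam instead. Larvae grew at 18 °C and spent 24 h at 29 °C, which inactivates the Gal80ts repressor and lets R23G12-Gal4 drive the transgene, before whole brains were frozen for DNA extraction. A single list without sample names was available, assumed to compare Dam-Drgx with Dam-only, so no interval has a replicate error or a read depth, and no test over samples was possible.

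DamID marks the neighbourhood of a chromatin protein, because a fused bacterial methylase adds methyl groups to adenines in nearby GATC motifs, and the Dam-only samples show where DNA is merely accessible. Drgx belongs to the Paired-like class of homeodomain factors, and T4/T5 neurons are the cells that detect the direction of motion in the fly optic lobe. Intergenic sequence beside a gene commonly holds promoter-proximal regions and enhancers, but an enhancer need not act on the nearest gene, so the gene names below state position only. The gene table used here has no strand, and whether an interval lay upstream or downstream of its gene was not analysed.

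Intervals were denser beside coding genes than in distal sequence, at gene ends or inside coding genes, while the counting interval overlapped that of sequence inside non-coding genes. The sequence that meets the rule amounts to 14.4 Mb, or 10.8% of the arms, and held 30.4 intervals per Mb (95% Poisson interval 27.6 to 33.4). Distal intergenic sequence, over 5 kb from coding genes, held 364 intervals or 17.6 per Mb (15.8 to 19.5). The insides of coding genes held 1280, or 16.9 per Mb (16.0 to 17.9), and the 500 bp on both sides of coding gene ends held 240, or 11.9 per Mb (10.5 to 13.5). Sequence that lies in a non-coding gene and in no coding gene held 72, or 26.1 per Mb (20.4 to 32.8), which overlaps the range of the members. These intervals cover counting error only and treat neighbouring intervals as independent, and the differences were not tested. The density of GATC motifs and the Dam-only signal in each kind of sequence were not measured, and their part in these densities was not tested. In 11 of 12 alternative settings the flanking intergenic sequence had the highest density of the positions compared. The exception was leaving out X, with 32.2 per Mb beside coding genes and 32.4 inside other genes. Counting only sequence between the first and last interval of each arm gave 31.1 per Mb beside genes, 22.1 in distal sequence and 27.4 inside other genes.

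**Figure D1:**
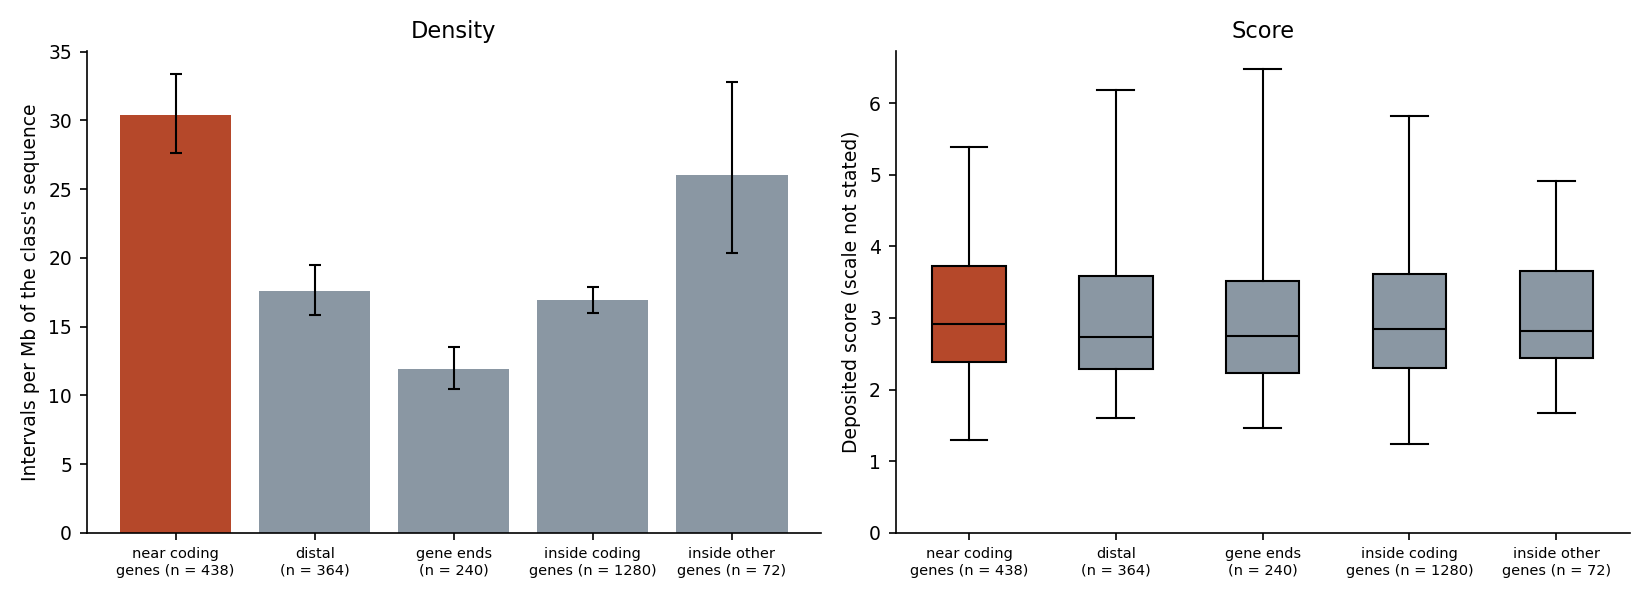
Left, intervals per Mb of sequence in each position, with 95% Poisson intervals as error bars; intergenic sequence near coding genes stands at 30.4 per Mb, sequence inside other genes at 26.1, and the remaining positions between 11.9 and 17.6. Right, boxes give the quartiles and median of the deposited score and whiskers its full range; the medians lie between 2.74 and 2.92.

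Within intergenic sequence, density differed with distance from the gene end. It was 17.9 intervals per Mb within 500 bp, 26.3 from 500 bp to 1 kb, 30.5 from 1 to 2 kb, 29.0 from 2 to 3 kb, 35.3 from 3 to 4 kb and 31.8 from 4 to 5 kb. Beyond the members' limit it was 28.4 per Mb up to 7500 bp, 24.1 between 10 and 20 kb and 6.02 beyond 20 kb. The Poisson intervals of the 5 bins between 500 bp and 5 kb overlap one another, and the bin from 5000 to 7500 bp overlaps them too, so the 5 kb limit is not a visible boundary in the data. The low figure for distal sequence as a whole comes with the 8.30 Mb lying over 20 kb from any coding gene, which held 50 intervals.

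**Figure D2:**
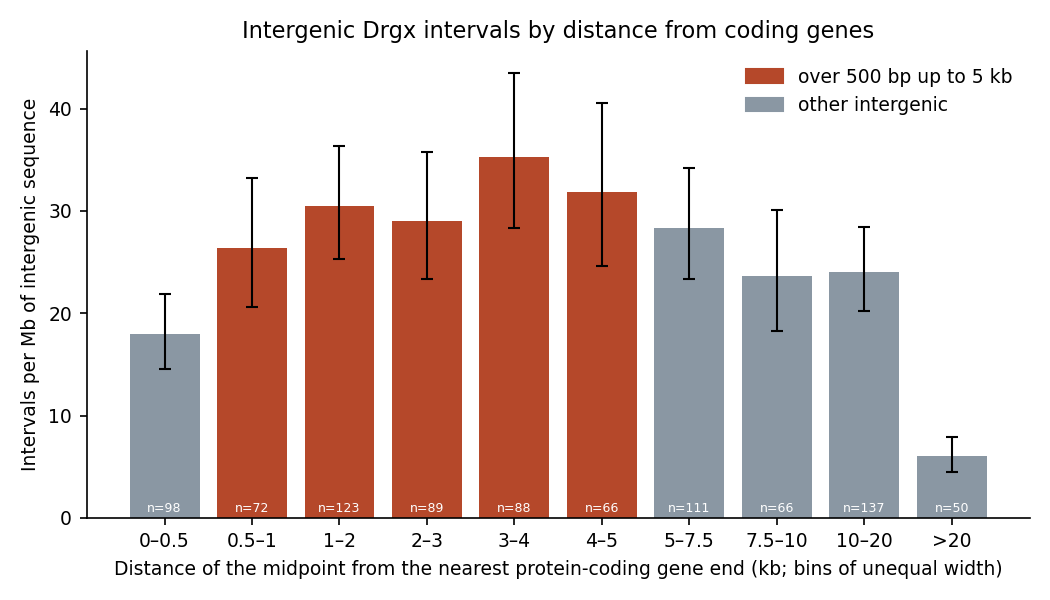
Bars give intergenic intervals per Mb of intergenic sequence (y axis) by distance of the midpoint from the nearest coding gene end in kb (x axis, bins of unequal width), with 95% Poisson intervals and the number of intervals in each bar. The 5 bins of the rule lie between 26.3 and 35.3 per Mb, against 17.9 within 500 bp and 6.02 beyond 20 kb.

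Members lay a median of 2195 bp from the nearest coding gene end (95% interval of the median 2017 to 2394), with quartiles of 1383 and 3420 bp. The median over every position that meets the rule was 2127 bp, inside that interval. The intergenic gap between the flanking coding genes had a median length of 11805 bp (10953 to 13244), against 11919 bp over all such positions, and ranged from 1350 to 191812 bp. By gap length, density was 27.6 per Mb in gaps of 2 to 5 kb, 35.1 in gaps of 10 to 20 kb and 21.6 in gaps over 50 kb, with overlapping Poisson intervals. The assignment to a nearest gene was close for some members: for 97 of them (22.1%) the gene on the other side lay at most 2 times as far away, and for 106 (24.2%) it too lay within 5 kb. Distances from genes were taken from the midpoint, and the intervals themselves reached further. Of the 438, 53 (12.1%) overlapped a coding gene by at least 1 bp, and 87 (19.9%) overlapped an annotated gene of any biotype. For 316 (72.1%), both edges lay more than 500 bp from any coding gene.

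Scores and widths of the members were close to those of the whole list. The score, 1 positive number per interval whose scale is not stated, had a median of 2.92 (2.82 to 3.03), quartiles of 2.38 and 3.73 and a range from 1.30 to 5.39. The medians were 2.74 (2.64 to 2.91) in distal intergenic intervals, 2.75 (2.60 to 2.92) at gene ends and 2.84 (2.77 to 2.90) inside coding genes. Of the members, 237 (54.1%) scored at or above the list's median of 2.83, against 46.4% of distal, 46.7% of gene-end and 50.7% of intragenic intervals. The median width was 1556 bp (1447 to 1668), against 1673 bp (1584 to 1866) for distal intervals and 1707 bp (1620 to 1791) inside coding genes. Gene-end intervals had a median width of 1259 bp (1124 to 1372). Wider members had lower scores (Spearman's rho -0.46 over 438 intervals of the same libraries) much as in the whole list (-0.44). The 109 narrowest members, up to 924 bp wide, had a median score of 3.71, and the 109 widest, from 2377 bp, had 2.57. The score had little relation to distance from the gene (rho -0.08) or to gap length (rho -0.04). Members that overlapped a coding gene were wider, with a median of 2148 bp against 1418 bp for the others, and scored lower, with medians of 2.57 and 2.98. The greater width follows from the rule, since a midpoint over 500 bp from a gene end lets only wide members reach the gene. The scores were not compared at equal width.

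The member with the highest score, 5.39, spanned 233 bp on 3R at 30276150 to 30276382, 1666 bp from heca, which encodes Headcase, a protein of imaginal development. A further member with a score of 3.23 ended 22 bp away from it. The second (score 5.25) was found on 3R, from 11779645 to 11780775, between prd1 (921 bp) and l(3)neo38 (1082 bp). The third (score 5.22) spanned 9587095 to 9589102 on 2L. Its nearest gene was CG3841 (1378 bp), and on the other side, 6353 bp away, was gcm, the glial determination gene glial cells missing. The fifth member lay 539 bp from nerfin-1, a zinc-finger gene needed to keep neurons differentiated, on 3L at 912111 to 913605 with a score of 5.12. This one overlapped a coding gene, in a gap of only 1754 bp shared with Glut1.

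The remaining members among the 15 highest scores ran from 5.19 down to 4.78. Transcription factor genes stood on 1 side of some of them, but the share of all members with such a gene on either side was not counted. Genes on the far side are named for only some members, chosen after their values were seen. The interval on 2R at 20907496 to 20909277 (score 4.99) lay 1318 bp from CAH15, a carbonic anhydrase gene, and 4972 bp from the homeodomain gene otp. Those at sens-2 (4.81, 2971 bp) and zfh1 (4.80, 2177 bp) lay beside zinc-finger genes, of which zfh1 also encodes a homeodomain. The ferritin gene Fer2LCH (4.93) and the respiratory complex I gene ND-B14.7 (4.85) were the nearest genes of the ninth and the tenth member. The nearest genes of the other 6 were CG13334 (5.19), CG3942 (5.06), CG44290 (5.03), CG42758 (4.83), CG12594 (4.81) and CG10570 (4.78), for which the table gives no name beyond the annotation number. The 5 lowest scores, 1.30 to 1.63, belonged to members beside CG3473, zf30C, CG9624, E(spl)mbeta-HLH and CG12877.

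Each member was given 1 nearest coding gene, and 396 different genes were named in this way. They are 2.84% of the 13922 coding genes on the 6 arms, and 7.74% of the 5119 coding genes that have any sequence meeting the rule and so could have been named. Of the 396, 174 (43.9%) carry only an annotation number as symbol, against 44.6% of the 5119. Their median length was 2301 bp, against 2550 bp for the 5119 genes. An interval midpoint also lay inside the body of 57 of the 396 (14.4%, Wilson 95% interval 11.3% to 18.2%), against 10.1% (9.29% to 10.9%) of the 5119. The nearest genes also had more flanking sequence in which a member could lie, with a median of 4500 bp against 2058 bp, so gene lists are given below per Mb of that sequence as well. For 7 members, genes were tied as nearest, and the gene end at the lower coordinate or, at a shared end, the lower gene ID was taken.

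The T4/T5 neurons arise from neuroblasts of the inner proliferation centre, which switch from the Sox gene Dichaete (D) to the orphan nuclear receptor gene tailless (tll), and express atonal (ato) and dachshund (dac) in the later phase. Among 28 regulators of this lineage, 21 had flanking sequence meeting the rule, and 9 (42.9% of the 21, Wilson 95% interval 24.5% to 63.5%) were the nearest gene of a member, against 7.74% over all genes with such sequence. They were ato, D, dac, dpn, fkh, hth, Lim1, slp2 and tll, with 15 members. This is 128 members per Mb of their flanks (Poisson 95% interval 71.5 to 211), against 30.4 per Mb for all coding genes. The median score of the 15 was 2.82, against 2.92 for all members. That genes of this lineage often carry an interval was known when the list was made, so this count is not independent support for it.

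At tll, 3 members flanked a gene of 2086 bp on 3R. On the lower-coordinate side they lay at 30850446 to 30850921 (score 2.82) and at 30851040 to 30852581 (2.33), the second of which ran into the gene itself. On the higher side a member of 239 bp at 30854818 to 30855056 scored 4.38, and a distal interval with a score of 4.85 began at 30857680. The members on the lower side shared a false discovery rate of 2.46e-12, and the member on the higher side shared one of 1.34e-25 with the distal interval.

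The bHLH gene ato, a proneural gene, had 2 members of its own on 3R, at 8277190 to 8277581 (score 2.02) and 8280151 to 8280862 (3.22). Its surroundings held more: members at 8271346 to 8271647 (4.42) and 8273238 to 8274126 (4.35) lay 6556 and 4370 bp from ato but nearer to CG9630. A gene-end interval at 8279509 to 8279978 scored 2.81. The highest scores of the ato neighbourhood thus belonged to intervals whose nearest gene was another one.

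The same held at deadpan (dpn), a bHLH gene of neuroblasts. Its members on 2R at 8232706 to 8233629 and 8233916 to 8234402 scored 4.21 and 1.72. Another interval in the same gap, at 8235869 to 8236820, scored 4.60 and lay 4014 bp from dpn, but 927 bp from the septin gene pnut.

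D was flanked on both sides on 3L, with a member at 14170647 to 14171594 (score 4.15, 4490 bp away) and a member at 14181397 to 14181946 (3.42, 3051 bp away), and no interval lay in its body. The LIM-homeodomain gene Lim1 on X was also flanked on both sides, with scores of 4.29 (8753447 to 8754439) and 2.16 (8806517 to 8807964), and had an interval of 4.08 inside it. At dac on 2L the member at 16462938 to 16464385 scored 4.76, the highest of the 15. The homeodomain gene hth, 132008 bp long, had 1 member (2.04) and 4 intervals in its body, 2 of which scored above 4. The forkhead genes fkh and slp2 had 1 member each, with scores of 2.53 and 2.48.

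**Figure D3:**
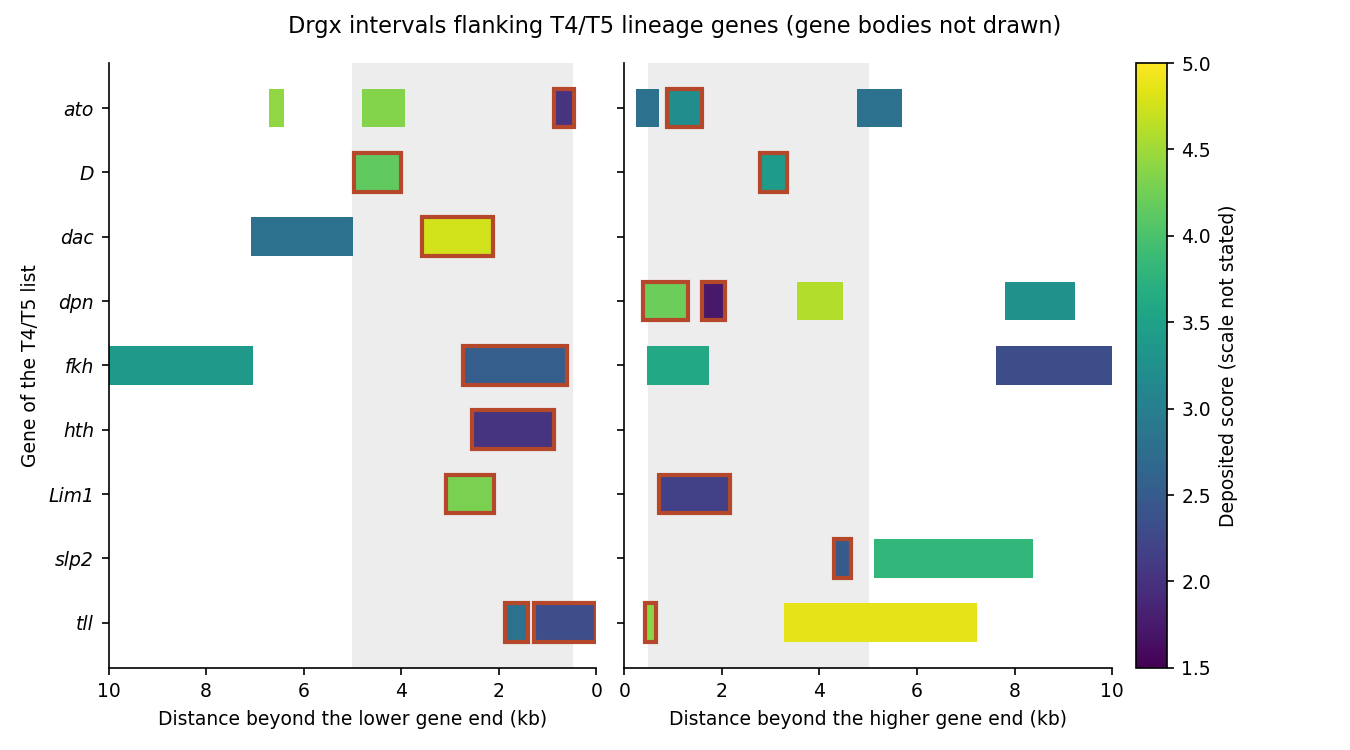
Intervals within 10 kb of the 9 T4/T5 list genes that are the nearest gene of a member, drawn to scale by distance in kb beyond the lower-coordinate (left) and higher-coordinate (right) gene end and coloured by deposited score. Red outlines mark the 15 members assigned to the gene, unoutlined blocks are intervals of other positions or nearer to another gene, and grey shading spans 500 bp to 5 kb. The unoutlined blocks left of ato (4.42 and 4.35) and beyond the members of dpn (4.60) lie nearer to another gene.

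Transcription factor genes were compared with surface proteins and channels, since the flanks of both kinds of gene were measured in the same way. Over 5 lists of transcription factors with 247 genes, 204 had flanking sequence meeting the rule and 47 (23.04%, 17.8% to 29.3%) were the nearest gene of a member, with 60.1 members per Mb (45.7 to 77.7). Over the guidance, dpr/DIP/beat/side and channel lists with 163 genes, 130 had such sequence and 14 (10.8%, 6.52% to 17.3%) were a nearest gene, with 23.6 members per Mb (12.9 to 39.5). Inside gene bodies the densities were 27.2 intervals per Mb for the transcription factors and 22.8 per Mb for the surface and channel genes, against 14.7 per Mb over all coding genes. These figures are for whole gene bodies, including the 500 bp inside each end, which the 16.9 per Mb given earlier leaves out. Surface and channel genes were longer, with a median of 29681 bp against 8859 bp, and 74 of 163 (45.4%) had an interval in the body, against 62 of 247 (25.1%) of the transcription factors. None of these differences was tested. The transcription factor lists include all 9 T4/T5 genes named above, with their 15 members. All lists were made with earlier results of these data known, so the contrast is not independent support.

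Among the transcription factors, the bHLH list had the densest flanks, with 11 members in 76.4 kb, or 144 per Mb (71.9 to 258), at 9 of 29 genes with such sequence. Besides ato and dpn, which also stand in the T4/T5 list, these were tap (4.40), Oli (4.04), Fer1 (3.80), dimm (2.56) and 3 genes of the Enhancer of split complex. The zinc-finger list had 18 members at 14 of 45 genes, or 76.5 per Mb (45.3 to 121). Its name is loose, since dac, psq and ct in it are not zinc-finger genes, and ct also stands in the homeodomain list. The list included noc (4.77), dac, both members of nerfin-1 (5.12 and 4.33) and both of lola (4.41 and 3.46). The remaining genes, wor, salr, chinmo, ham, klu, erm, psq, ct, scrt and esg, had scores up to 3.90. Several of these, such as dpn, wor, klu, erm and nerfin-1, are known from neuroblasts, intermediate progenitors or newborn neurons. The share of such genes among list genes with and without a member was not counted, so no tie to these stages is shown.

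The homeodomain list, the family to which Drgx belongs, had 19 members at 17 of 88 genes, or 41.0 per Mb (24.7 to 64.1), an interval that includes the 30.4 per Mb of all coding genes. The highest scores were at zfh1 (4.80), exex (4.61), which is a motor neuron gene, Lim1 (4.29) and the glial gene repo (4.05). Optix, bap, ftz and B-H2 scored between 3.49 and 3.77, and gsb, ara, oc, ct, bsh, abd-A, mirr, hth and Scr scored from 1.89 to 2.91. The Sox, forkhead, T-box and GATA list had 7 members at 6 of 30 genes (D, fd59A, mid, Sox21a, fkh and slp2), or 46.9 per Mb (18.8 to 96.5). The nuclear receptors had 4 members at 2 of 14 genes, or 73.5 per Mb (20.03 to 188): 3 at tll and 1 at Eip75B (2.58), an ecdysone response gene.

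The Notch pathway list had 5 members at 4 of 14 genes, or 125 per Mb (40.6 to 292). A further 3 names on this list, among them Dl, had no match by name and were left out. Ser, which encodes a Notch ligand, had 2 members on 3R that lay 105 bp apart, with scores of 2.88 and 4.21. These 2 shared a false discovery rate of 1.04e-10, and the Poisson interval counts them as independent. The others were at E(spl)malpha-BFM, E(spl)m6-BFM and Tom (2.71), a Bearded-family gene. In the Enhancer of split complex, a cluster of Notch response genes on 3R, 5 members stood between 26006972 and 26039936, of which 3 belong to bHLH list genes and 2 to Notch list genes. Their nearest genes were E(spl)mbeta-HLH (1.59), E(spl)malpha-BFM (4.16), E(spl)m5-HLH (3.73), E(spl)m6-BFM (4.33) and E(spl)m7-HLH (3.17).

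The Poisson intervals of the other lists also included the 30.4 per Mb of all coding genes. Wnt, Dpp, Hedgehog and EGF genes had 3 members at 3 of 33 genes (nkd 4.12, kek2 2.20 and fz3 1.80), or 21.0 per Mb (4.33 to 61.3). Axon guidance genes had 5 members at 5 of 36, or 30.5 per Mb (9.90 to 71.2), and the highest was at robo1 (4.63), a receptor for Slit, followed by caps (3.35), Drl-2 (3.21), otk (2.77) and Ten-m (2.26). The dpr, DIP, beat and side genes had 5 members at 5 of 47, or 19.9 per Mb (6.45 to 46.4): dpr21 (3.40), side-V (2.53), dpr6 (2.38), dpr1 (2.33) and beat-Va (1.85). Ion channels, transmitter receptors and transmitter synthesis and transport genes had 4 members at 4 of 47, or 22.4 per Mb (6.11 to 57.4), at ChAT (2.86), which encodes choline acetyltransferase, and the receptor genes GABA-B-R3 (2.46), Oamb (2.22) and nAChRbeta2 (1.89). None of these 4 scored above the members' median. Ribosomal protein genes, taken as a housekeeping group, had 3 members at 3 of 26 genes (RpL13 3.68, RpS26 3.63 and RpL10Aa 2.34), or 41.9 per Mb (8.64 to 122), and no interval in any gene body.

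**Figure D4:**
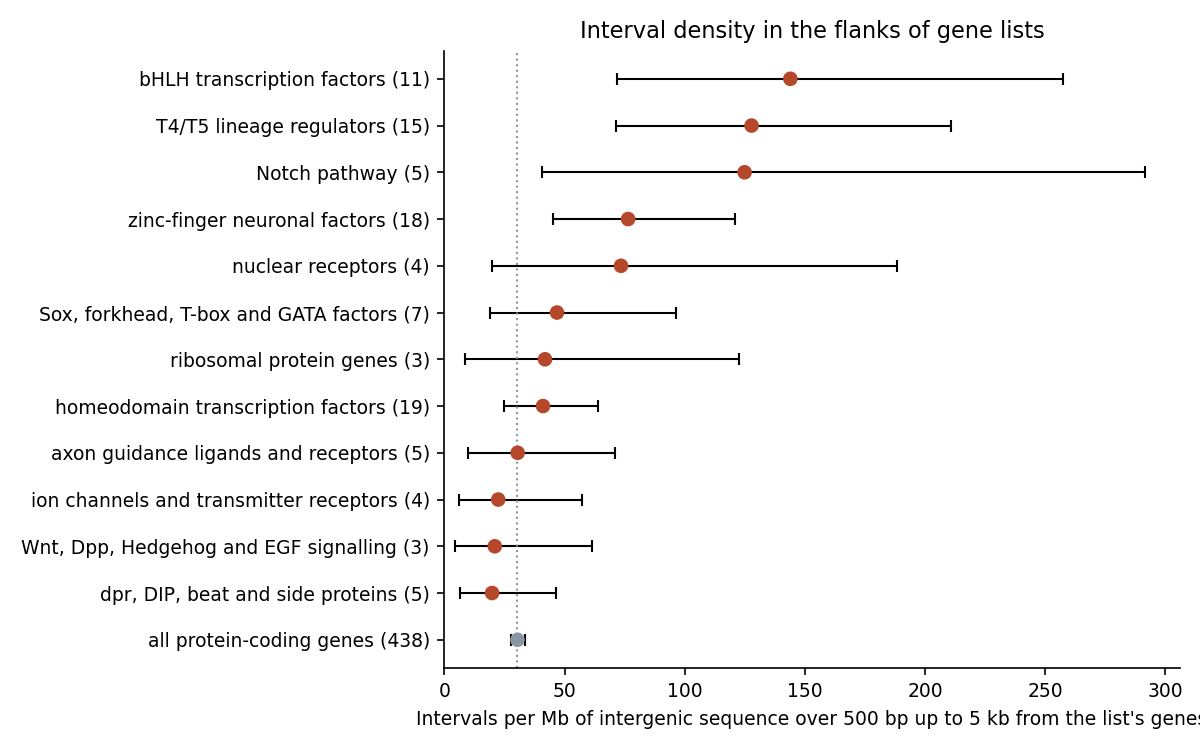
Points give members per Mb of flanking intergenic sequence (x axis) for each gene list, with 95% Poisson intervals and the number of members in brackets; the dotted line and the lowest row are all protein-coding genes at 30.4 per Mb. The intervals of the bHLH, T4/T5, Notch and zinc-finger lists lie above that line, and those of the other 8 lists include it. They treat close neighbours, such as the members at Ser, as independent.

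Most nearest genes had a single member: 356 had 1, 38 had 2, and tll and CG7560 had 3. At CG7560 on 3L the members scored 3.48 (11419521 to 11420990), 4.28 (11421446 to 11423934) and 1.97 (11428652 to 11430348). By intergenic gap, 317 gaps held 1 member, 47 held 2 and 9 held 3. The 65 pairs of successive members in the same gap lay a median of 2512 bp apart, edge to edge.

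Spacing was described by the gap to the nearest other interval, without a test of the differences. For members this gap had a median of 7843 bp (quartiles 2321 and 21164), against 6799 bp for distal, 17765 bp for gene-end and 10864 bp for intragenic intervals. A neighbour stood within 10 kb of 247 members (56.4%, Wilson 95% interval 51.7% to 61.0%), against 58.2% (53.1% to 63.2%) of distal, 37.5% (31.6% to 43.8%) of gene-end and 47.6% (44.9% to 50.3%) of intragenic intervals. Of those 247 neighbours, 118 (47.8%) were themselves members, 61 (24.7%) were distal, 32 (13.0%) lay inside coding genes and 23 (9.31%) at gene ends. With the neighbour at any gap, it was a member for 37.0% of the members and for 17.9% of all 2394 intervals. For all intervals it was distal in 16.0%, inside a coding gene in 54.2% and at a gene end in 8.60%. A close neighbour can lie in the same intergenic gap, so these shares do not show that members cluster with members. The score was somewhat higher where the neighbour was closer (rho -0.22 over the 438 members, and -0.18 over all 2394 intervals). The score of the member and that of its neighbour within 10 kb were weakly related (rho 0.13, n = 247).

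**Figure D5:**
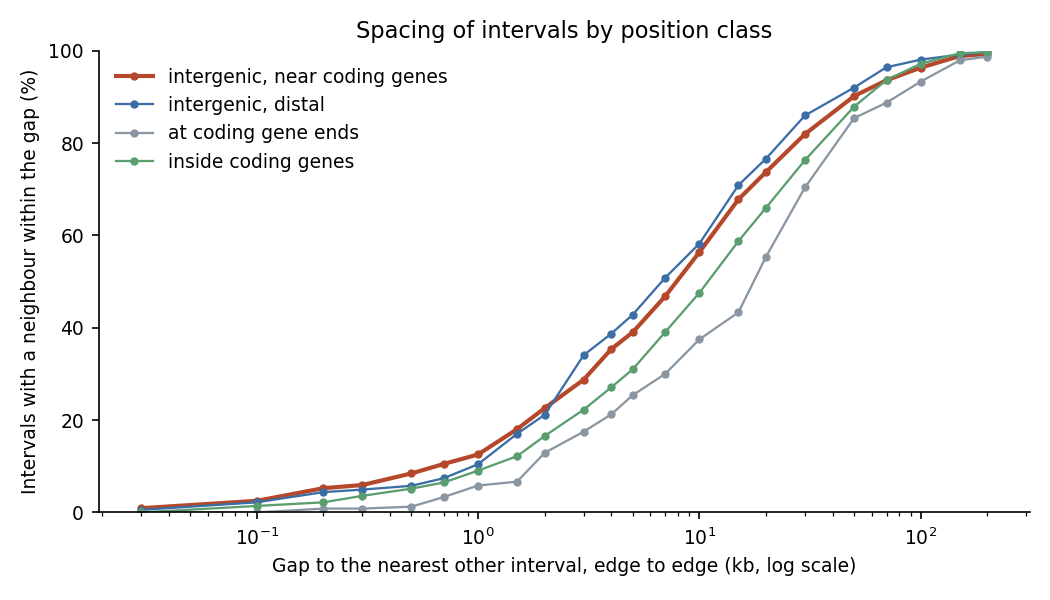
Curves give the share of intervals (y axis, %) that have another interval within the gap on the x axis (kb, edge to edge, log scale), for members, distal, gene-end and intragenic intervals. At 10 kb the curves stand at 56.4%, 58.2%, 37.5% and 47.6%.

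Some members nearly touched each other. The closest pairs of members lay 6 bp apart at klu (scores 1.64 and 2.98), 22 bp apart at heca (3.23 and 5.39) and 36 bp apart at Indy (4.12 and 4.33). Of the 55 members with a neighbour within 1 kb, 28 (50.9%) carried exactly the same false discovery rate as that neighbour, against 3.14% of the 191 members whose neighbour was beyond 10 kb. In the whole list the shares were 54.3% and 3.96%. How closely spaced intervals were separated is not given in the sources used here. Joining intervals within 1 kb left 410 members.

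By arm, 2L had 77 members, 2R had 87, 3L had 109, 3R had 121, X had 43 and 4 had 1. Per Mb of sequence meeting the rule, 3L held 36.4 (29.9 to 43.9), 3R held 34.3 (28.5 to 41.0), 2R held 32.9 (26.3 to 40.6), 2L held 25.9 (20.4 to 32.3) and X held 20.1 (14.6 to 27.1). The Poisson intervals of 3L, 3R, 2R and 2L overlap, and that of X overlaps those of 2L and 2R. The members were 11.7% of the intervals of X, against 17.9% to 20.8% on the 4 large autosomal arms. Their median score was 3.23 on 3L and between 2.73 and 2.92 on the other large arms. The only member on 4 scored 2.38.

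Members close to the limits of the rule are given beside intervals just outside it, with 3 on each side, too few to show likeness or difference. The 3 closest to a gene end, 505 to 522 bp away at tll, CG1888 and chinmo, scored 2.33, 2.25 and 3.10. The 3 intergenic intervals just outside, 486 to 499 bp away at Pdk1, bma and CG8034, scored 2.65, 2.93 and 4.29. At the other limit, the 3 farthest members (4924 to 4954 bp, at CG32588, msopa and SkpD) scored 2.30, 4.06 and 3.50. The next intervals beyond it (5031 to 5095 bp, at CG34433, Obp57c and zfh1) scored 2.68, 2.42 and 3.94.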

How the data were processed

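The authors deposited a list of 2396 intervals with a score and a false discovery rate (FDR) each. The deposited score has no stated scale and served only to describe and rank intervals. The build was BDGP6, per the submitters' processing notes; aligner, caller, filters and pooling of replicates are not given in the sources used here. Starts were read as zero-based and raised by 1, and midpoints rounded down. Genes were the 17684 entries of the Release 6 RefSeq table on 6 arms, and the last gene end stood for arm length. Genes without an entry there were not used. By name, 4 listed genes had no match and were left out, 3 from the Notch pathway list and 1 from the bHLH list. Sequence meeting the rule was counted base by base. Intervals are not replicates, so shares carry Wilson and densities exact Poisson 95% intervals, medians order-statistic intervals, and no test was run. Members and gene lists were chosen with earlier results of these data known. Genes named are those of the 15 highest and 5 lowest scores, genes with 3 or more members, list genes, genes at the limits of the rule and at the 3 closest pairs, plus flanking genes chosen after their values were seen. The procedures were tested on simulated arms and ran in Python 3.11.15 with scipy 1.17.1, pandas 2.3.3 and numpy 2.4.6.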

Additional observations from a re-analysis of the deposited data

How the results depend on the processing

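Of 129 results under alternative settings, 115 stayed within 1.5 times the count or within the 95% interval reported. Keeping intervals that score at or above the list's median left 237 members at 219 nearest genes, with 16.5 members per Mb, a median score of 3.68, a median width of 1131 bp, a score-width rho of -0.37 and a neighbour within 10 kb for 46.8%. In that setting 13.4% of the transcription factor genes were a nearest gene, against 19.0% with all members, and the densities of distal and intragenic intervals were 8.16 and 8.59 per Mb. The counts and densities are lower because fewer intervals enter, and the median score is higher because intervals were kept by score. With neighbours up to 1 kb apart merged, the median width was 1673 bp and 51.5% had another interval within 10 kb. The median distance was 2595 bp with a lower limit of 1000 bp and 3219 bp with an upper limit of 10 kb. Keeping only members whose edges lay over 500 bp from coding genes, chosen after seeing the data, gave a median distance of 2924 bp and a median width of 1360 bp. Counting space between the first and last interval of each arm was also chosen after seeing the data. The share of all 28 T4/T5 list genes that were a nearest gene was 32.1%, and it ranged from 21.4% to 41.2% over 13 settings. The planned share of intervals facing a 5′ end was not run, since the table has no strand, and density could not be given for distances from interval edges. No paired analysis was possible because the list holds no values per sample.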

Other observations

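For 99 of the 438 members (22.6%) an annotated gene that does not encode a protein lay nearer than any coding gene. Of these, 90 were lncRNA genes, 4 tRNA genes, 3 antisense RNA genes, 1 a miRNA gene and 1 a pseudogene. How much of the sequence meeting the rule lies nearer to a non-coding gene was not measured. The counts therefore have no background share beside them and show no association with such genes. The 90 members beside lncRNA genes had a median score of 3.05, against 2.87 for the 339 members whose nearest annotated gene encodes a protein. This difference was not tested. Several of the higher scores described above belong here, and the following were picked after their values were seen. The midpoint of the interval beside prd1 (5.25) lay 431 bp from lncRNA:CR45595, and that at noc (4.77) lay 356 bp from lncRNA:CR44731. The midpoint at robo1 (4.63) lay 19 bp from lncRNA:CR44764, and that of a member at lola (4.41) lay 483 bp from lncRNA:acal. At Optix (3.77) the nearest annotated gene was lncRNA:CR43724, 255 bp from the midpoint. The intervals at prd1, noc, robo1 and Optix themselves overlapped an annotated gene, but no coding gene.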
